A study of Mus musculus with 2 samples.

Results

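The 762 genomic intervals described here are restriction fragments that lay in site-dense stretches of the mouse autosomes and gave a bright methylation-dependent signal in both nuclei examined. They were taken from a deposited table of 23738 intervals of 200 to 2000 bp by 3 criteria. An interval had to belong to a chain of at least 3 touching intervals, in which each starts at the base after the previous one ends, had to hold at least 2 array probes, and had to have a mean log2 processed signal of 12 or more over those probes, both dyes and both arrays. Of 3590 autosomal intervals that met the first and second criteria, 762 (21.2%) met the third, and they fell in 443 of 1059 chains. Chains of closely spaced sites served as a proxy for CpG islands, which were not themselves annotated. The members were thus chosen by the processed signals of all 4 channels, and their brightness is a description and no finding. The ratio between the nuclei, interval length and the state of neighbouring intervals were not used in the choice.

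The study set genomic DNA of the paraventricular nucleus (PVH) against DNA of the arcuate nucleus (ARH) of C57BL/6 mice at postnatal day 10, with both sexes mixed. Each pool joined 7 dissected pieces, so an array measured a pool of many cells and not an animal or a cell type. There were 2 arrays, labelled as biological replicates, and each carried a PVH pool and an ARH pool in different dyes. PVH carried the red dye Cy5 on replicate 1 and the green dye Cy3 on replicate 2. The series title and a tissue label name the ventromedial nucleus where the sample titles and source names give ARH. The second nucleus is called ARH here, as in the sample titles, and its identity cannot be settled from these labels. Nothing in the labels ties the pools of an array to the same animals.

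DNA methylation in mammals falls mainly on the cytosine of CpG pairs. Most CpG islands, the short CpG-rich stretches found at many promoters, are unmethylated in somatic tissue. Known exceptions are islands on the inactive X chromosome, at imprinted control regions, at promoters of germline genes and within gene bodies. The assay reads the sites CCCGGG. SmaI opens a site with a blunt end if its inner CpG carries no methyl group. XmaI, added second, opens those that SmaI left, with a cohesive end. Only cohesive ends accept the adaptors, so a fragment is amplified when both of its ends were methylated. A bright signal is thus read as DNA with both end sites methylated in at least some cells, and it is no absolute methylation level, since fragment length, copy number and probe properties enter it too.

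The level of the members was similar across the channels. The median member had a log2 processed signal of 13.68 for PVH and 13.55 for ARH on replicate 1, and of 13.45 for PVH and 13.60 for ARH on replicate 2. On the linear scale these medians are 13129, 11999, 11171 and 12453 intensity units. The other 2828 site-dense intervals had medians of 398 to 517 units in the same channels, and the 1196 negative control spots had a median of 6.38 over all 4 channels. Of the members, 705 reached 12 in each of the 4 channels taken alone, and no channel held fewer than 718 members at that level. All 2883 probes of the members were well above background in every channel. The correlation of member levels between channels ran from 0.926 to 0.982 over 762 intervals, which share probes and arrays.

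Probes within an interval differed in level. Members held 2 to 5 probes, and 616 of them held 4. The SD of the probe levels within a member had a median of 0.68 on the log2 scale and reached 3.04. Every probe was at 12 or more in 574 members, while 19 members held a probe under 11. The minimum cut a continuous range of levels. Just inside it were intervals on chromosome 11 from 67462573 to 67463768 (12.0045), on chromosome 16 from 95792779 to 95794046 (12.0057), on chromosome 18 from 65209298 to 65209535 (12.02) and on chromosome 3 from 95769273 to 95769544 (12.02). Just outside lay an interval on chromosome 17 from 45916983 to 45917609, which rounds to the minimum. Below it came intervals on chromosome 6 from 51199979 to 51200439 (11.9999), on chromosome 2 from 163421903 to 163423230 (11.9982) and on chromosome 15 from 79326095 to 79326387 (11.99). All positions are those of mouse build mm8, as the scanner file headers give it, and genes were not assigned to them here.

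Brightness went with interval length. Members were 210 to 1916 bp long, with a median of 691.5 bp. Among site-dense intervals over 600 and up to 800 bp, 39.2% (176 of 449) were bright. The share was 11.8% (111 of 940) at 200 to 400 bp and 1.25% (7 of 560) above 1500 bp. Isolated intervals, which touch no other interval of the table, had the same shape, with 15.5% bright at 200 to 400 bp, 53.3% over 600 and up to 800 bp and 0.70% above 1500 bp. Site-dense intervals had the lower bright share in each class up to 1000 bp and the higher share in each class above it, where the longest class held 1.25% against 0.70%. Over all lengths, 21.2% of site-dense and 25.6% of 13497 isolated intervals were bright. These shares rest on the signal that defines the members, so no test was made.

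**Figure D1:**
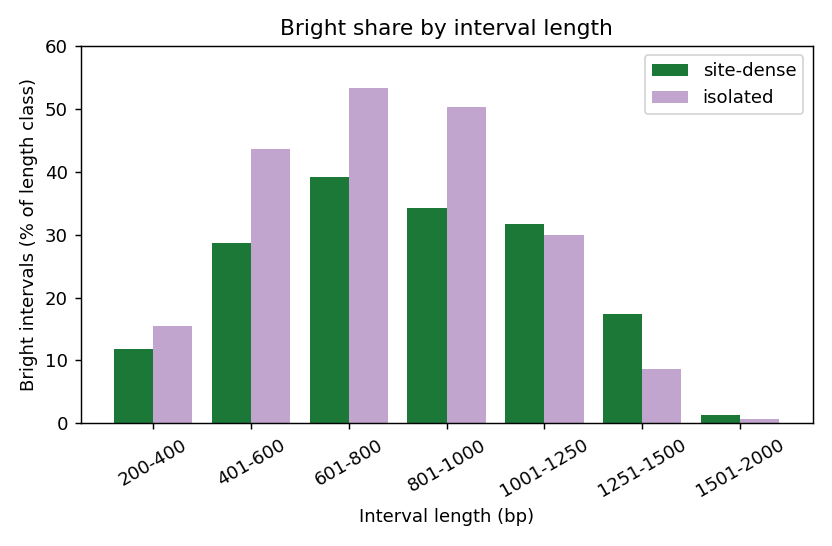
The bars show the percentage of autosomal intervals with at least 2 probes that had a mean log2 signal of 12 or more, by length class in bp, for site-dense intervals (green) and isolated intervals (purple). Both peak in the class over 600 and up to 800 bp, at 39.2% and 53.3%, and fall to 1.25% and 0.70% above 1500 bp.

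Bright intervals lay next to each other. Touching intervals share a restriction site, so the methylation of that site enters both. Of 760 members with a measured neighbour in the chain, 411 (54.1%) touched another member, while 512 of 2786 other site-dense intervals (18.4%) touched a member. Of 2503 touching pairs, 249 were bright on both sides, 573 on 1 side and 1681 on neither. Across these pairs the mean log2 levels correlated at r = 0.37, with the shared site and the shared arrays in both values. Position in the chain made little difference, since 314 inner intervals (20.9%) and 448 end intervals (21.4%) were bright.

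Most chains with a member were mixed. Among 1002 chains in which every interval was measured by at least 2 probes, 44 were bright throughout, 389 held bright and dimmer intervals side by side, and 569 held no member. A single member stood in 230 chains, 136 chains held 2, and 77 chains held 3 or more. The chain with the most members lay on chromosome 6 from 114458078 to 114464115, and all 6 of its intervals were bright, at mean log2 levels from 13.59 to 15.41. Lengths of 472 or 473 bp came 3 times in it, and 3 of its intervals are among the recurring lengths. A chain on chromosome 15 from 88983857 to 88988617 had 5 of 5 members, 4 of them between 14.63 and 15.23 and an interval of 1509 bp at 12.03. A chain on chromosome 17 from 39452294 to 39456579 had 5 of 6, with the exception, an interval of 308 bp, at 10.89. A second chain on chromosome 17, from 25101448 to 25107095, also held 5 members, of 7 intervals, and came after the other chains with 5 by its mean level of 12.50. No interval of the first 3 chains passed the test between the nuclei in limma (adjusted p = 0.999983 for each), with mean log2 ratios from -0.08 to 0.14.

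Intervals flanked by members were looked at next, as a description, since the same signal defined the members and the flanks and so cannot test whether their ends were methylated. An interval with a member on each side shares both of its end sites with bright fragments. There were 148 such intervals, of which 87 (58.8%) were themselves bright and 61 were not. With a member on 1 side, 37.2% of 347 were bright, and with none, 9.84% of 965. The 61 dimmer intervals had a median level of 10.45 and a median length of 1353 bp, against 14.01 and 759 bp for the 87 bright ones. Of 62 flanked intervals over 400 and up to 1000 bp, 54 were bright (87.1%, beside 33.4% of all site-dense intervals of that length). Up to 400 bp, 6 of 19 were bright, and above 1000 bp there were 27 bright and 40 dimmer intervals. These length classes were chosen after the values were seen. An interval of 1915 bp on chromosome 2 at 168351023 to 168352937, chosen for its low level, stood at 5.56 between members at 14.21 and 13.77. An interval of 746 bp on chromosome 8 at 125302753 to 125303498, also picked after the values were seen, stood at 7.02 between members at 14.74 and 12.24. Neither was the lowest of the 61 dimmer intervals, which was at 3.69. Longer dimmer intervals on chromosome 11 (6.39) and chromosome 5 (6.87) also lay below the one on chromosome 8 and were not picked. The probe levels of the picked intervals had SDs of 1.72 on chromosome 2 and 1.75 on chromosome 8. The signal thus did not follow the brightness of both neighbours in every interval.

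**Figure D2:**
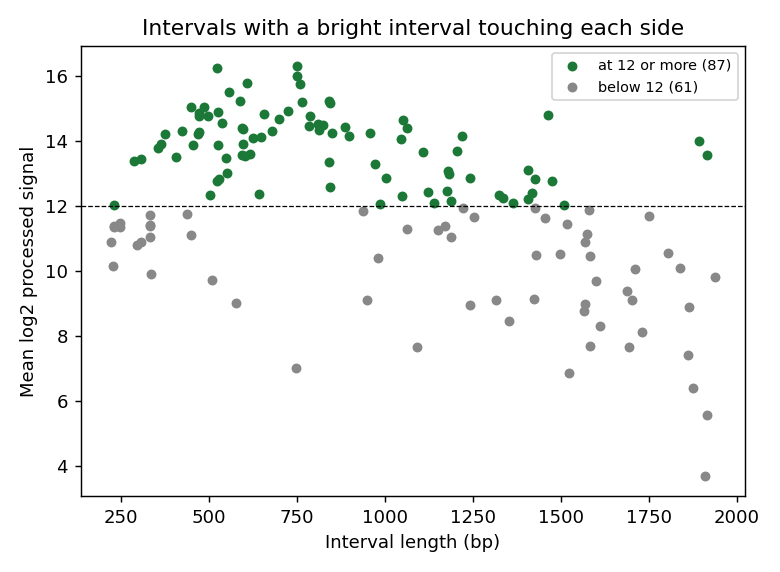
Each point is an interval with a bright interval touching it on each side (148 in all), placed by its length in bp and its mean log2 processed signal, with the minimum of 12 dashed. The 87 bright intervals are mostly over 400 and up to 1000 bp long, and 40 of the 61 dimmer ones are longer than 1000 bp.

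The brightest members came from few loci. The highest, at 16.47, was an interval of 302 bp on chromosome 7 from 82647844 to 82648145. Its left neighbour, at 82647320 to 82647843, was the third at 16.26. Another 3 of the 6 brightest lay on chromosome 3 between 93368443 and 93376744, at 16.31, 16.02 and 16.02, and the remaining interval, on chromosome 17 at 25104493 to 25105111, was also at 16.02. On chromosome 3, 2 chains from 93368443 to 93371455 and from 93375245 to 93378259 held 8 intervals in all. These were 738 to 765 bp long, and all 8 were bright at 15.22 to 16.31.

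Recurring lengths were counted across all autosomal intervals. A touching pair was called recurring when the same 2 lengths, in either order, stood side by side in another pair on the autosomes, the same chain included. Among 5506 touching pairs, 29 combinations of lengths recurred. Of the members, 23 (3.02%) belonged to such a pair, as did 32 of the 2828 other site-dense intervals (1.13%). Of these 23 members, 11 lay on chromosome 4 between 42255681 and 42690746, where lengths of 488, 778 and 1301 bp returned. On chromosome 9, 3 touching members from 11470670 to 11472541 were each 624 bp long, at 14.0046, 14.10 and 14.16. No sequences were compared, so recurring lengths need not mark copies of the same DNA. Where they do, probes may detect DNA of each copy, and members in them are not independent. None of the 23 was called between the nuclei in limma, beside 1.39% of all tested intervals, so that the count of 0 says little. The highest mean ratio among them, 0.59 with 0.80 and 0.37 on the arrays, was that of an interval on chromosome 9 from 106208835 to 106209436.

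The bright share of site-dense intervals varied among chromosomes. The share was lowest on chromosome 14 (9 of 96, 9.38%) and chromosome 13 (11 of 108, 10.2%). It was highest on chromosome 16 (20 of 65, 30.8%) and chromosome 4 (92 of 305, 30.2%, or 28.4% without recurring lengths). Isolated intervals varied less, from 20.4% bright on chromosome 3 to 29.2% on chromosome 8. By distance from the last interval of the chromosome, the share of site-dense intervals that were bright was 17.3% within 2 Mb (17 of 98), 29.8% at 2 to 10 Mb (137 of 460), 22.0% at 10 to 40 Mb, 20.9% at 40 to 80 Mb and 16.04% beyond. For isolated intervals the corresponding shares were 25.8%, 31.4%, 26.1%, 24.5% and 24.0%. These are counts of linked intervals on the same arrays, and no test was made over them.

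Between the nuclei, the members as a whole did not shift when both arrays were averaged, but each array alone did. Ratios are log2 of PVH over ARH, so a positive value means more PVH signal. The median member was at 0.18 on replicate 1 and at -0.19 on replicate 2, and the median of the means was 0.0059. Over all 22350 tested intervals the medians were -0.017 and -0.0098. Since the dyes were swapped, both values correspond to a brighter red channel. Red was the brighter channel on both arrays for 421 members (55.2%, beside 25.6% of 21908 tested autosomal intervals) and green for 53. PVH was higher on both arrays for 105 members (13.8%, beside 23.1% of tested autosomal intervals) and lower on both for 183 (24.0%, beside 26.4%).

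The red excess grew with brightness. Members at a mean log2 level of 12 to 13 had median ratios of -0.043 on replicate 1 and -0.049 on replicate 2. Members at 15 or more had medians of 0.62 and -0.52, and red was brighter on both arrays for 66 of those 71. The highest member, on chromosome 7, had a ratio of 0.90 on replicate 1 and -0.66 on replicate 2. The chromosome 3 interval at 93375995 had 1.29 and -1.10. Isolated bright intervals followed the same course, with medians of 0.0036 and -0.073 at 12 to 13 and of 0.54 and -0.45 at 15 or more. With loess within each array, which removes a trend of the ratio on brightness, the medians of the members were -0.016 and -0.0094. The mean over the dye swap cancels a shift of equal size on both arrays, which remains in the SD between them.

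**Figure D3:**
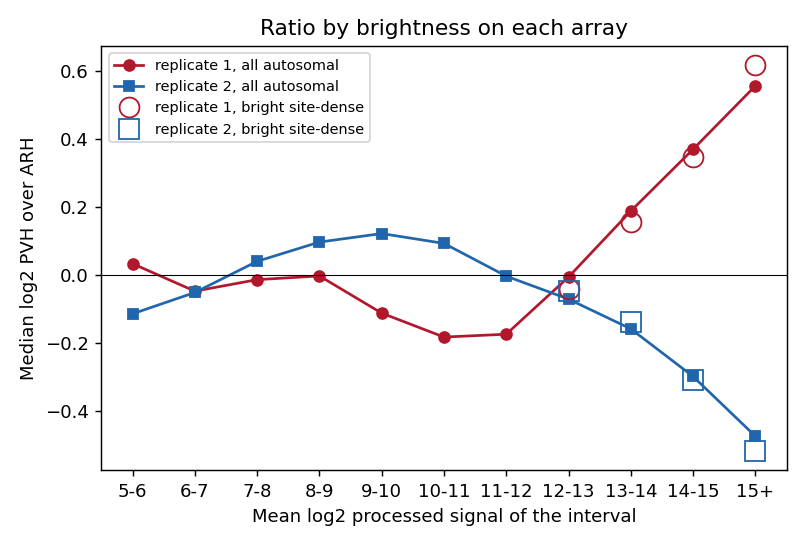
Median log2 ratio of PVH over ARH on each array, by class of mean log2 processed signal, for tested autosomal intervals at 5 or more (filled, joined) and for the bright site-dense intervals (open). From 13 up the arrays part with red brighter, reaching 0.62 and -0.52 for members at 15 or more, and in the classes from 9 and from 10 they part the other way, at -0.11 and 0.12 and at -0.18 and 0.092.

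The comparison asked where methylation differs between the nuclei. It was tested with limma over all 22350 intervals with at least 2 tested probes, at a Benjamini-Hochberg adjusted p under 0.05. Of the 762 members, 10 passed (1.31%), beside 1.39% of all tested intervals. PVH was lower at 8 (0.944% of all intervals were called lower) and higher at 2 (0.447% were called higher). The share called among members was thus close to that of all intervals. Over the 21908 autosomal intervals tested the share called was 1.42%. Mean ratios of members ran from -1.48 to 0.93, with the 5th percentile at -0.51 and the 95th at 0.32. At a fixed size of 1.5-fold on both arrays, 19 members were lower and 4 higher in PVH. That is 3.02% of members, beside 2.34% of autosomal intervals (1.64% lower, 0.703% higher), while 20 members reached this size in opposite directions, 2.62% beside 0.826%.

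**Figure D4:**
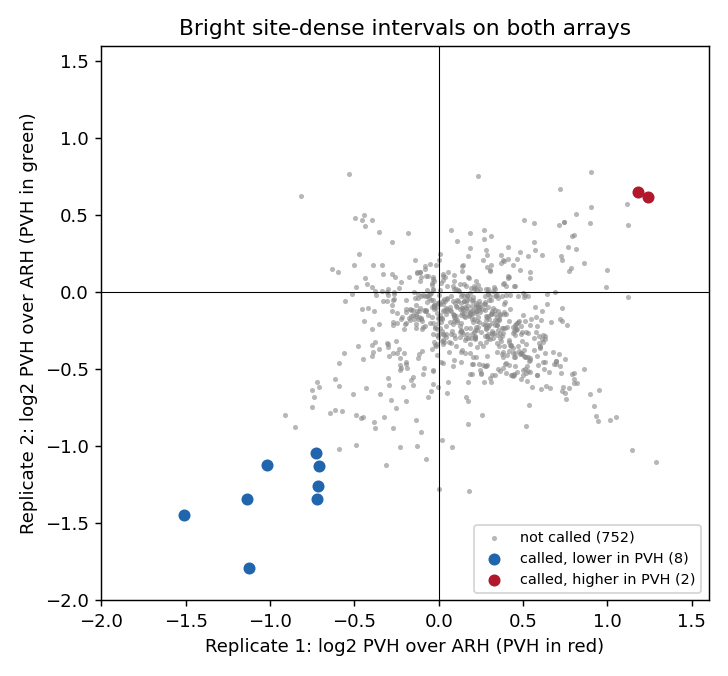
Each point is a bright site-dense interval, placed by its log2 ratio of PVH over ARH on replicate 1 (x) and replicate 2 (y). The 8 intervals called lower in PVH (blue) lie at -0.71 or below on both arrays, the 2 called higher (red) at 0.62 or above, and the remaining 752 (grey) lean to the lower right, where red was the brighter dye on both arrays.

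The called members with the lowest ratios lay on chromosome 14. At 20771279 to 20772092 (814 bp), PVH had a processed signal of 3588 on replicate 1 and 3663 on replicate 2, and ARH had 10152 and 9948. PVH was the lower channel on both arrays by almost the same factor. The mean log2 ratio was -1.48 ± 0.042 (SD, n = 2 arrays), a 2.79-fold lower signal (adjusted p = 3.9e-06, limma). At 20782109 to 20782769 (661 bp), PVH was at 17533 and ARH at 38024 on replicate 1, and at 9494 and 32725 on replicate 2. Both PVH values lay below both ARH values, with a wider gap on replicate 2. Called members were chosen by their ratio, which favours such a separation, so it adds no support. The mean ratio was -1.46 ± 0.47, a 2.75-fold lower signal (adjusted p = 5.8e-06, limma).

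The next members lay on chromosomes 8 and 6. On chromosome 8 at 36278521 to 36279212 (692 bp), PVH was at 3775 and 4266 on the 2 arrays and ARH at 8273 and 10774, a mean ratio of -1.24 ± 0.14 (adjusted p = 3.1e-04, limma). Its 4 probes spread widely, with an SD of 1.26 on the log2 scale. On chromosome 6 at 120455650 to 120456770 (1121 bp), PVH was at 2891 and 3080 and ARH at 5820 and 6660, a mean ratio of -1.07 ± 0.072 (adjusted p = 0.0046, limma). This interval was just inside the brightness minimum at 12.07. In both intervals the PVH and ARH values did not overlap, which the choice by ratio favours.

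In 4 further members PVH was lower by about the same amount, and the gap was wider on replicate 2 in each. On chromosome 15 at 85917074 to 85918122, PVH was at 17537 and 10940 and ARH at 28784 and 27649 on replicates 1 and 2 (-1.03 ± 0.44, adjusted p = 0.0074, limma). On chromosome 7 at 132612696 to 132613489, PVH was at 14452 and 9244 and ARH at 23575 and 22040 (-0.99 ± 0.39, adjusted p = 0.013, limma). Both are brighter than the chromosome 6 interval and lay at a mean level near 14. On chromosome 4 at 127975102 to 127975775, PVH was at 13473 and 9299 and ARH at 21900 and 20235 (-0.92 ± 0.30, adjusted p = 0.029, limma). On chromosome 6 at 88741824 to 88742336, PVH was at 9696 and 8051 and ARH at 15990 and 16531 (-0.89 ± 0.22, adjusted p = 0.040, limma). No ARH value of these 4 members reached down to a PVH value of the same member. This too goes with the choice by ratio, and members not called were not counted for it.

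The 2 members higher in PVH had the wider gap on replicate 1. On chromosome 16 at 58346756 to 58347251, PVH was at 7575 and 6806 and ARH at 3193 and 4420, a mean ratio of 0.93 ± 0.44 or a 1.90-fold higher signal (adjusted p = 0.026, limma). On chromosome 8 at 8619292 to 8620297, PVH was at 21838 and 17556 and ARH at 9588 and 11136, a mean ratio of 0.92 ± 0.37 or 1.89-fold (adjusted p = 0.030, limma). The ratio was higher on replicate 1, where PVH carried the red dye, in 9 of the 10 called members, the exception being the interval of 814 bp on chromosome 14. The same held for at least the 421 of 762 members with red brighter on both arrays. It was not counted over all members, so whether it was particular to the called ones cannot be told from this.

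The p-values rest on 2 arrays, with 1 residual degree of freedom for an interval. The prior of limma gave all intervals a standard error of 0.26, so that the call amounted to a minimum of 0.87 in the size of the mean log2 ratio. The number of members called depended on the normalization. With normexp and no loess it was 2, both on chromosome 14 (0.166% of all intervals), and with normexp and loess it was 42, 5.51% of members beside 3.02%. With a trend on interval length removed it was 3 (0.385%). The ratios of the called members stayed about as large where calls were lost, for example -1.06 under normexp and -0.98 after removal of the length trend for the chromosome 6 interval of 1121 bp. In these fits the prior of limma had 7.43 and 10.46 degrees of freedom, where it was infinite before. It stayed at 10 without centring (1.39%) and with the median over probes (1.36%), and it rose to 11 when processed signals went through loess (1.36%) or 3 tested probes were required (1.49%). It was 12 with no filter on dim probes (1.4%), with only probes well above background throughout (1.44%) and with the deposited interval table (1.28%). It was 14 with X and Y omitted (1.6%) and with a trended robust prior (2.03%).

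Intervals touching a called member mostly had ratios of the same sign. The 10 called members had 14 measured neighbours in their chains, and 13 had a mean ratio of the same sign. Neighbours share a site and the arrays, and same-sign pairs were not counted over all intervals. Of the 14 neighbours, 5 passed the test themselves, while 1.39% of all tested intervals did. These 5 touched 5 of the 10 called members, and none of them was bright enough to be a member. Around 20771279 on chromosome 14, all 3 intervals of the chain were lower in PVH, at -1.48, -1.45 and -1.65, with brightness falling from 12.56 to 10.88 and 8.94. In the chain of 9 on the same chromosome, the called member and the interval to its right (-1.54, level 11.23) were lower in PVH, and the other 7 did not pass, at -0.58 to 0.34.

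In 3 other chains a called neighbour stood beside the called member. On chromosome 6, the called member at 88741824 and its left neighbour of 1569 bp at 88740255 were lower in PVH, at -0.89 and -0.95. Members farther left in the chain were at -0.18 and 0.032, with a dimmer interval between them at -0.020. The first interval of that chain, at 88736283, was at -0.83 and did not pass (adjusted p = 0.073, limma). On chromosome 7, the member at 132612696 and its neighbour at 132613490 were at -0.99 and -0.97, and the member beyond, at 132614919, was at -0.13 and did not pass. On chromosome 8, the member at 36278521 touched an interval at -0.95 that also passed, although its level was only 7.61. On chromosome 4 the called member stood alone, with members to its left at -0.16 and -0.13. Over the 249 touching pairs of members the mean ratios correlated at r = 0.51, with the site and the arrays shared.

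**Figure D5:**
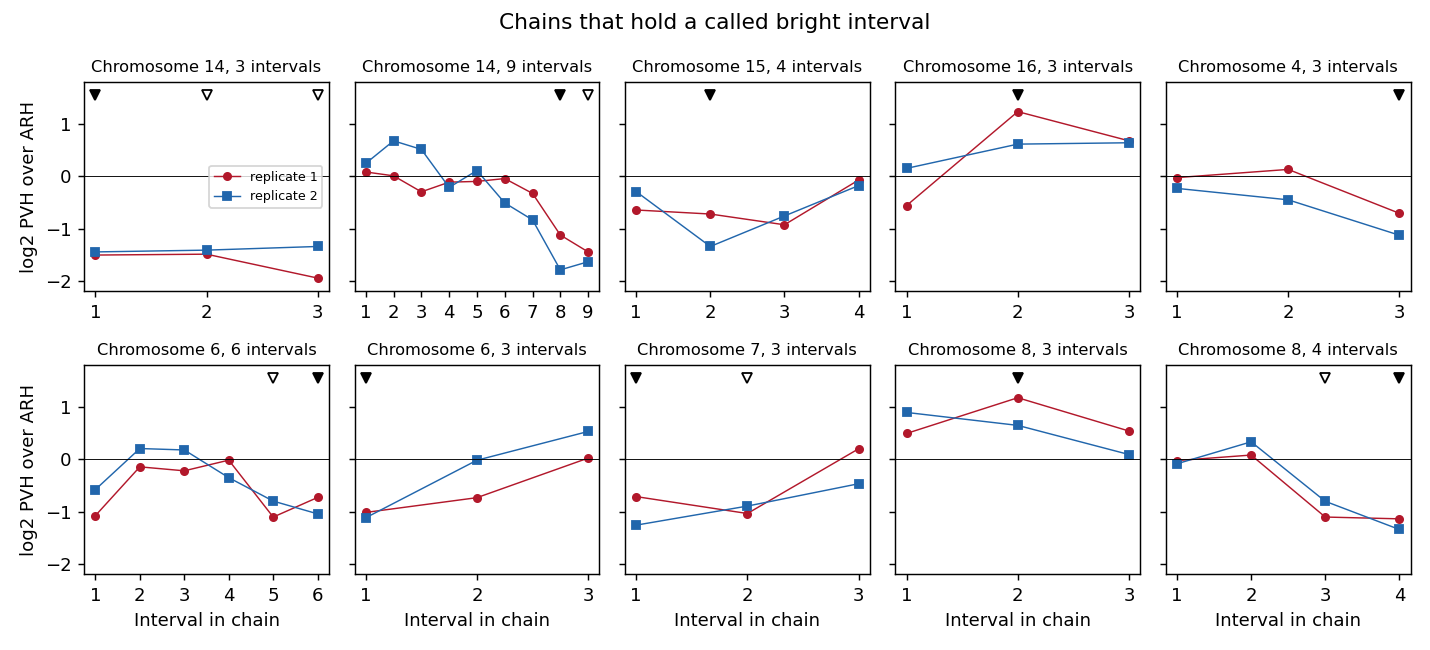
Log2 ratio of PVH over ARH for each interval of the 10 chains that hold a called bright interval, in order along the chromosome, on replicate 1 (red circles) and replicate 2 (blue squares). Filled triangles mark called bright intervals and open triangles mark called intervals below the brightness minimum, and in 5 chains both kinds touch.

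The number called was set beside that in other intervals. Of 2733 tested site-dense intervals below the minimum, 36 were called (1.32%), 10 higher and 26 lower in PVH. Of 3457 tested bright isolated intervals, 78 were called (2.26%), 40 higher and 38 lower. Whether these shares differ from that of the members was not tested, since intervals of the same 2 arrays are not replicates. The correlation of the arrays was 0.15 over the members, 0.27 over the dimmer site-dense intervals and 0.38 over the bright isolated ones. It was 0.55 over the members with loess on the processed signals, as against 0.26 over all intervals.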

How the data were processed

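The members and all lists and classes were chosen with earlier results of these data known. Per the file headers, the authors' scanner software was Feature Extraction 10.5.1.1 from Agilent, run with a CGH protocol on design 017202 and mm8 positions, while version 9.1.3.1 is given by the submitters' processing notes. The deposited processed intensity is background-subtracted and scaled by 1 linear dye factor per channel, with no lowess. The authors' LogRatio column (log10 of red over green) was not used in a test. The deposited interval table holds log2 values whose centring is unknown (medians 0.046 and 0.018). Set against own ratios it gave r = 0.965 and 0.980, which fixed its direction and scale.

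Ratios of PVH over ARH were taken on the log2 scale from the processed intensities, with the sign set by the dyes in the labels. Control spots, 79 outlier spots and spots lacking on either array a channel well above background were left out, leaving 84715. Each array was centred on its median, probes were averaged per interval, and intervals were tested with limma 3.58.1 (R 4.3.3), lmFit and eBayes. Level, unlike ratio, was averaged over all non-control probes. No spot was saturated. Having 2 arrays limits precision, and each was on its own slide and scanned on its own day, so slide and replicate cannot be told apart. Named by plan are called members, the 6 brightest, the 3 chains with the most members (ties by mean signal) and intervals near the minimum. Other loci were named outside that plan, with their values known. They are the flanked intervals, the second chain on chromosome 17, the chains on chromosome 3, intervals with recurring lengths and neighbours of called members. The planned naming by promoter match was not made, since probe sequences were not used here. The spot mean was replaced by the spot median where planned. The fit was tested on simulated data.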

Additional observations from a re-analysis of the deposited data

How the results depend on the processing

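The test already paired the pools by array, because every ratio is taken within an array. No pairing by animal was possible from the labels. The count of 10 called members was 10 to 14 with no centring, either filter on dim probes, the median over probes, at least 3 tested probes, the deposited table, autosomes alone, loess on the processed signals or a trended robust prior (which kept only 5 of the 10 among its 14). It was 2 with normexp and no loess, 42 when loess followed, and 3 after removal of a trend on length. The cause was not tested. Of 120 alternative results for the 10 called members, 99 kept direction and significance, 21 no longer passed and none reversed. All of them reuse the same 2 arrays. Requiring 3 tested probes, autosomes alone and the trended robust prior left these ratios unchanged, so no reversal could occur there. The tally of 99 is thus no independent support for the calls. The chromosome 14 members passed in all 12 alternatives. With the rule changed, called members numbered 14 of 1058 at a signal minimum of 11 and 6 of 523 at a minimum of 13. They numbered 8 of 643 with the median spot signal minus local background and 10 of 741 with 3 or more probes. With chains of 2 or more they numbered 32 of 2049 (2048 tested), and with chains of 4 or more 4 of 310. The set size thus changed with the rule, and 1.39% of all tested intervals were called before any change. Members touching another numbered 672 at a minimum of 11 (63.8% of those with a measured neighbour), 235 at 13 (45.0%), 955 with chains of 2 or more (47.1%) and 197 with chains of 4 or more (63.5%). Members at least 1.5-fold apart numbered 86 without replicate 1 (79 of them lower in PVH) and 107 without replicate 2 (83 of them higher), and the median ratio was -0.19 and 0.18. On each array the larger side was that with the red channel brighter. The share over all intervals was not counted on 1 array, so these counts cannot be read as particular to the members. No test is possible on 1 array. Leaving out members with recurring lengths, an alternative chosen after seeing the data, left 10 called of 739.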
